A study of Mus musculus with 312 samples.

Results

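Genes of DNA replication and of mitosis were followed in single mammary cells from adult and pregnant mice. The 45 genes were chosen by symbol, 18 for replication and 27 for mitosis, out of 25136 genes with a symbol that were neither mitochondrial nor ribosomal protein genes. Cells were taken from mammary tissue of FVB/NJ mice, carry the label basal, and were captured on the Fluidigm C1, which isolates each cell in a chamber of its own and makes cDNA from it. Of 237 adult cells, 112 have (2) in their title and are called marked here, the other 125 are called unmarked, and 75 cells came from pregnant mice. The labels give neither a treatment nor an engineered allele for any group, name no animals, do not explain the mark, and do not give the stage of pregnancy. The study lists pregnancy cells run on the C1 only as total epithelium, and in a larger number than the 75 here, so its account may not cover these cells. The identity of the 75 as basal cells rests on the label and on the markers below. Each group was treated as 1 sample, no test was made between groups, and pregnancy and capture run cannot be told apart.

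A cell copies its DNA in S phase, and the copies are then separated in mitosis. Replication begins when the MCM helicase, loaded by Cdc6 and Cdt1, is activated with the GINS complex, and many of these genes are switched on by E2F factors as a cell leaves G1. Genes of mitosis are held down in resting cells by a repressor complex that binds at CHR elements, and they rise in G2 with CCAAT-binding factors and Foxm1. The mammary epithelium divides during pregnancy as ducts branch and alveoli form, while the adult virgin gland is largely at rest.

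The promoter sequence shows how the lists differ before any read is counted. Windows of 300 bases from 250 bases before to 50 bases after each RefSeq start (GRCm38.p6) were present for 15 of 18 replication genes and 22 of 27 mitosis genes, and none was present for Mcm4, Gins2, Ccne2, Ccna2, Tpx2, Aurkb, Foxm1 or Kif20a. An E2F-type site (TTTGGCGC or TTTGCCGC or TTTCGCGC or TTTCCCGC, either strand) stood in 7 of 17 replication windows, in 1 of 24 mitosis windows (Cdk1) and in 2.26% of all 32851 windows. A CHR element (TTTGAA or TTCGAA, either strand) stood in 19 of 24 mitosis windows, in 2 of 17 replication windows (Mcm2 and Mcm7) and in 19.2% of all windows. Within 50 bases of the start, the CHR element stood in 18 of 24 mitosis windows, 0 of 17 replication windows and 5.31% of all windows, a distance chosen after the matches were seen. CCAAT, on either strand, stood in 21 of 24 mitosis windows, 11 of 17 replication windows and 37.4% of all windows, so it was frequent in both lists. It stood together with a CHR element in 19 mitosis windows, 2 replication windows and 7.52% of all windows, and all CHR windows of both lists had it. A match is a run of letters and not a measured binding site, and opposite-strand E2F-type sites can overlap. The 4 sequences that follow belong to the replication genes with an E2F-type site and the mitosis genes with a CHR element, among genes with 1 window, for which the smaller of the differences in detection from the adult sets was widest. They run 5′ to 3′ on the gene's own strand (minus) from 200 bases before to 30 bases after the start, at chr1:20820283-20820512, chr1:128359676-128359905, chr1:189688057-189688286 and chr11:99024160-99024389. Capitals mark E2F-type sites and CCAAT in the first pair, and CHR elements and CCAAT in the second pair.
Mcm3: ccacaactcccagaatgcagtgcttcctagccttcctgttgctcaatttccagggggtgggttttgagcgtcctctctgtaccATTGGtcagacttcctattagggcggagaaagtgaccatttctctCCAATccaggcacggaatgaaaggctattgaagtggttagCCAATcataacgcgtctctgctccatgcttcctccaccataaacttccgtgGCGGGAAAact
Mcm6: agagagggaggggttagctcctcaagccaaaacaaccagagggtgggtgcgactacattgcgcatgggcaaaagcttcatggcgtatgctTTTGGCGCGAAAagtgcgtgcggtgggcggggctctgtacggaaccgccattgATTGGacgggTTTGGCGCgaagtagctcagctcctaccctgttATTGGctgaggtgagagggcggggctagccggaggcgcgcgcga
Cenpf: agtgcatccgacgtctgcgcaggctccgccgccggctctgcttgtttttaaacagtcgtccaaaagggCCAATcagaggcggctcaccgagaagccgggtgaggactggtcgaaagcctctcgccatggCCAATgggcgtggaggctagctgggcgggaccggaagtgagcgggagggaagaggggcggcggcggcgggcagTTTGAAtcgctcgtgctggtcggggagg
Top2a: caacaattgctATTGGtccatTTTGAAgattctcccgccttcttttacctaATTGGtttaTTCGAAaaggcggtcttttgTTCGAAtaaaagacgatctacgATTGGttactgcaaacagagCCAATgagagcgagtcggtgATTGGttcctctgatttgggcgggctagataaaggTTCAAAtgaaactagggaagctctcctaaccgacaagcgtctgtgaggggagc

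Total read pairs per cell ranged from 342 to 437532 in marked adult, from 41 to 459260 in unmarked adult and from 24054 to 529822 in pregnancy cells. Cells with at least 50000 assigned read pairs and 1000 genes were retained, which were 81 marked adult, 58 unmarked adult and 71 pregnancy cells. Each retained cell was thinned at random to 50000 assigned read pairs, and a gene was found in a cell when at least 1 read pair remained. Even so, pregnancy cells had a median of 3211 genes against 2312 and 2193 in marked and unmarked adult cells, so detection in general was higher in pregnancy. At least 6 of 11 core basal genes reached 100 CPM (read pairs per 1000000 assigned) in 76 of 81 marked adult, 51 of 58 unmarked adult and 70 of 71 pregnancy cells. At least 3 of 8 luminal genes did so in 4, 4 and 1 cells, and at least 3 of 8 immune, endothelial or fibroblast genes did so in at most 4 cells of any group. The markers thus stood with the basal label in all 3 groups. Shares below carry exact Clopper-Pearson 95% intervals, which cover counting error within these cells and not variation between mice.

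The lists differed in how far pregnancy stood apart from adult cells. Median detection over the 27 mitosis genes was 4.94% of cells in marked adult, 5.17% in unmarked adult and 25.4% in pregnancy. Over the 18 replication genes it was 9.26%, 11.2% and 14.8%, and over all 9502 genes with a mean share of at least 5% it was 16.0%, 17.2% and 23.9%. The pregnancy share was above both adult shares for 25 of 27 mitosis genes (92.6%) and 11 of 18 replication genes (61.1%), against 65.9% of the 9502 genes. A gene was counted as higher when its pregnancy share exceeded each adult share by at least 10 percentage points, a rule of size that 31.1% of the 9502 genes met. It was met by 18 of 27 mitosis genes, 23 of which had the mean share of 5%, and by 3 of 18 replication genes (Mcm3, Rrm2 and Uhrf1), 13 of which had it. The mitosis count stood above the background, and the replication count in the main thinning stood below it. Over 100 thinning draws the replication count had a mean of 4 and a range of 2 to 6 genes. Without thinning it was 7 genes. No background was taken for the draws or without thinning. No member met the rule in the other direction, which 1.47% of the 9502 genes did.

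**Figure D1:**
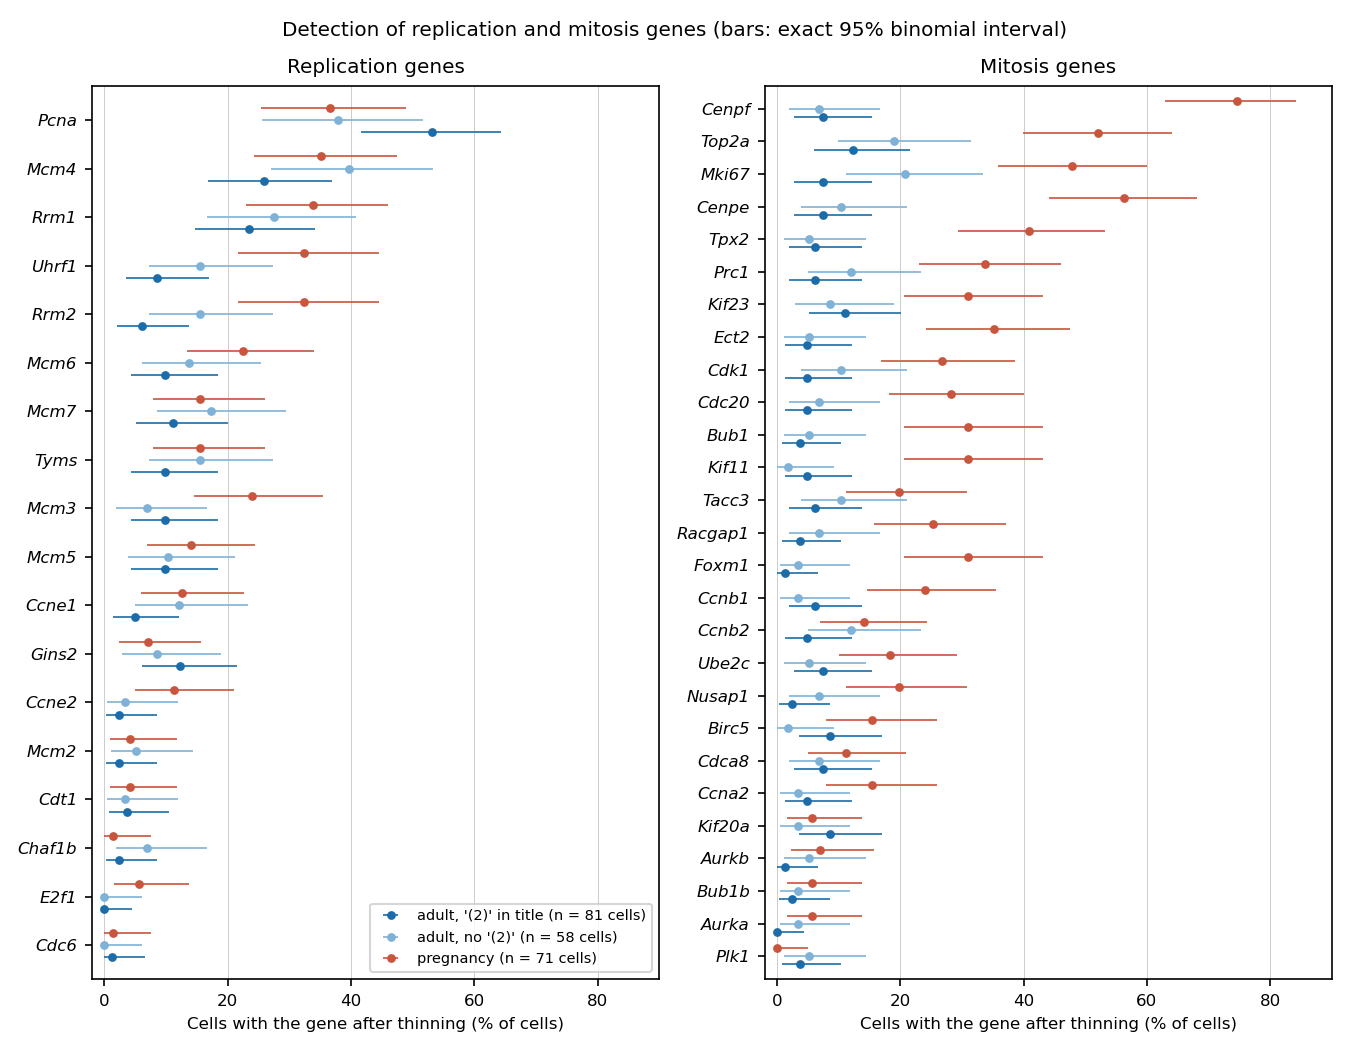
Share of cells in which each gene was found after thinning, in percent, with replication genes on the left and mitosis genes on the right, ordered by the mean of the 3 groups. Points are groups and bars exact 95% binomial intervals. Cenpf lies at 74.6% in pregnancy against 7.41% and 6.90% in adult cells, while the intervals of Pcna and Mcm4 overlap across the 3 groups.

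Among replication genes, Pcna (chr2:132249286-132253180, coordinates here and below from RefSeq on GRCm38.p6), the sliding clamp that holds DNA polymerase on its template, was the most widely found and the only member of either list with its highest share in marked adult cells by more than 10 points. It was found in 43 of 81 marked adult (53.1%, interval 41.7 to 64.3%), 22 of 58 unmarked adult (37.9%, 25.5 to 51.6%) and 26 of 71 pregnancy cells (36.6%, 25.5 to 48.9%). Its mean level was 60.9, 89.7 and 44.8 CPM, and the highest cell of each group had 344, 2171 and 692 CPM. Without the cell at 2171 CPM (190), the unmarked adult mean was 53.2 CPM. Mcm4, a subunit of the MCM helicase, was found in 21 (25.9%), 23 (39.7%) and 25 (35.2%) cells, at 62.4, 37.1 and 43.2 CPM on average. For both genes the pregnancy share was no higher than that of unmarked adult cells.

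Ribonucleotide reductase makes the deoxyribonucleotides for DNA synthesis, and its subunits are described in turn. Rrm1, the large subunit, was found in 23.5%, 27.6% and 33.8% of marked adult, unmarked adult and pregnancy cells, 10.3 and 6.22 points higher in pregnancy. Its mean was 66.8 and 63.1 CPM in adult and 224 CPM in pregnancy cells, and 1 pregnancy cell at 6141 CPM held 38.6% of the pregnancy sum. Without the highest cell of each group the means were 45.6 and 45.5 CPM in marked and unmarked adult cells and 140 CPM in pregnancy. Rrm2, the small subunit, was found in 5 of 81 marked adult (6.17%, 2.03 to 13.8%), 9 of 58 unmarked adult (15.5%, 7.35 to 27.4%) and 23 of 71 pregnancy cells (32.4%, 21.8 to 44.5%). The mean level of Rrm2 was 4.72, 31.4 and 65.8 CPM, and 3.24, 19.7 and 46.3 CPM without the highest cell of each group. Uhrf1, which helps to copy DNA methylation onto the new strand, was found in 7, 9 and 23 cells (8.64%, 15.5% and 32.4%). Its mean level was highest in unmarked adult cells, at 89.2 CPM against 12.8 in marked adult and 55.7 in pregnancy, so detection and mean level ranked the groups differently. Without the highest cell of each group the means were 8.17, 57.6 and 47.1 CPM.

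The other MCM subunits were less widely found. Mcm3 was found in 8 marked adult (9.88%), 4 unmarked adult (6.90%) and 17 pregnancy cells (23.9%, 14.6 to 35.5%), and Mcm6 in 8 (9.88%), 8 (13.8%) and 16 cells (22.5%). Mcm5 was found in 9.88%, 10.3% and 14.1% of cells. Mcm7 and Mcm2 had a higher share in unmarked adult than in pregnancy cells, with 17.2% against 15.5% and 5.17% against 4.23%, differences that lie within the intervals. Tyms, which makes thymidylate, was found in 15.5% of unmarked adult and of pregnancy cells. Gins2, of the GINS complex, was found in 10 (12.3%), 5 (8.62%) and 5 cells (7.04%), and its mean of 25.6 and 18.2 CPM in adult cells stood against 2.93 CPM in pregnancy. With a pseudocount of 10 CPM it was the 1 member among the genes tested that was at least 2 times lower in pregnancy than in each adult set, as 4.31% of the 9502 genes were. The call was lost without the highest cell of each group (67, 145 and 69), where the means were 16.4, 12.0 and 1.90 CPM and the log2 ratios -1.15 and -0.88.

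The regulators that open S phase were rarely found in any group. Ccne1 and Ccne2, cyclins that drive entry into S phase, were found in 12.7% and 11.3% of pregnancy cells, and in 2.47 to 12.1% of adult cells. Cdt1 was found in 3, 2 and 3 cells. Cdc6 was found in 1 marked adult, 0 unmarked adult and 1 pregnancy cell, where 0 of 58 cells allows a share of up to 5.17%. E2f1, a transcription factor of this programme, was found in 0 of 81 marked adult cells (which allows up to 3.70%), 0 of 58 unmarked adult cells (up to 5.17%) and 4 of 71 pregnancy cells (5.63%). Those 4 pregnancy cells had 5 to 8 replication genes and 5 to 14 mitosis genes. Chaf1b, a subunit of the factor that places histones on new DNA, was found in 2, 4 and 1 cells.

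Among mitosis genes the widest difference belonged to Cenpf (chr1:189640606-189688107), a large protein of the outer kinetochore and of the nucleus in G2. It was found in 6 of 81 marked adult (7.41%, 2.77 to 15.4%), 4 of 58 unmarked adult (6.90%, 1.91 to 16.7%) and 53 of 71 pregnancy cells (74.6%, 62.9 to 84.2%). The pregnancy median was 46.3 CPM against 0 in both adult sets, and the highest cell of each group had 1325, 1092 and 996 CPM. Its mean was 31.9, 31.1 and 157 CPM, a log2 ratio of 1.99 and 2.02 with a pseudocount of 10 CPM. Cells 105 and 141 held 51.3% and 60.5% of the adult sums, and without the highest cell of each group the means were 15.8, 12.5 and 145 CPM and the ratios 2.59 and 2.78. Single adult cells thus reached the level of the highest pregnancy cell, and the groups differed in how many cells had the transcript. Cenpe, the kinesin that carries chromosomes to the spindle equator, was found in 6 (7.41%), 6 (10.3%) and 40 cells (56.3%, 44.0 to 68.1%). The mean of Cenpe was 12.7, 45.1 and 219 CPM, and 8.13, 23.4 and 197 CPM without the highest cell of each group.

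Top2a, the topoisomerase that untangles sister DNA, was found in 10 (12.3%), 11 (19.0%) and 37 cells (52.1%, 39.9 to 64.1%). Mki67, which coats mitotic chromosomes, was found in 6 (7.41%), 12 (20.7%) and 34 cells (47.9%, 35.9 to 60.1%). Both were found in more unmarked than marked adult cells, with intervals that overlap. For Mki67, 1 unmarked adult cell at 4716 CPM held 73.5% of that group's sum, and the mean of 111 CPM fell to 29.9 CPM without it. Mean levels in pregnancy were 169 CPM for Top2a, against 49.5 and 78.9 CPM in adult cells, and 173 CPM for Mki67, against 19.1 CPM in marked adult cells. Without the highest cell of each group, the means of Top2a were 27.9, 37.8 and 135 CPM. Those of Mki67 were then 8.57 CPM in marked adult cells (without cell 36) and 141 CPM in pregnancy. Foxm1, the transcription factor of the G2 programme, was found in 1 marked adult, 2 unmarked adult and 22 pregnancy cells (31.0%, 20.5 to 43.1%). Its log2 ratios of 3.11 and 2.89 were among the widest of the list.

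Genes of the spindle and of cell cleavage followed. Tpx2, which activates Aurka on the spindle, was found in 5 (6.17%), 3 (5.17%) and 29 cells (40.8%, 29.3 to 53.2%). Prc1, which bundles microtubules of the central spindle, was found in 5 (6.17%), 7 (12.1%) and 24 cells (33.8%). Ect2, the exchange factor that starts cleavage, was found in 4 (4.94%), 3 (5.17%) and 25 cells (35.2%), and Kif23, a motor of the central spindle, in 9 (11.1%), 5 (8.62%) and 22 cells (31.0%). In all 4 genes the pregnancy share lay 19.9 points or more above either adult share. Bub1, a kinase of the spindle checkpoint, and Kif11, the motor that separates spindle poles, were each found in 22 pregnancy cells, and in 1 to 4 cells of either adult set. Cdk1, Ccnb1, Cdc20, Racgap1, Nusap1, Ube2c and Ccna2 also met the rule of 10 points, with 15.5 to 28.2% in pregnancy. Over 7 settings of detection, 6 of the 21 called members were called in all (Mki67, Cenpe, Cenpf, Tpx2, Foxm1 and Kif11), 10 in all but 1, and 5 in fewer. Ube2c was called in 2 settings, Ccna2 in 3, Nusap1 in 4, and Cdk1 and Kif23 in 5, and Ube2c and Ccna2 lost the call when only core basal cells were kept. Ccnb2, Birc5, Cdca8, Tacc3 and Aurkb had a higher share in pregnancy than in both adult sets but missed the rule.

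At the lower end of the list, Plk1 had its lowest share in pregnancy. Plk1 (chr7:122159435-122169884), which drives entry into mitosis and the maturation of spindle poles, was found in 3 of 81 marked adult (3.70%), 3 of 58 unmarked adult (5.17%) and 0 of 71 pregnancy cells, and 0 of 71 allows up to 4.23%. Before thinning it was seen in 1 pregnancy cell, at 9.96 CPM. Of the 4 adult cells with at least 20 mitosis genes, cells 105, 128 and 158 had it and cell 36, with 23 mitosis genes, did not. It was also found in adult cells 26, 90 and 156, which had 3 to 5 mitosis genes. Pregnancy cells with up to 20 mitosis genes were without it. Aurka, the kinase of spindle poles, was found in 0, 2 and 4 cells, the pregnancy cells being 22, 23, 61 and 75, and Bub1b, of the spindle checkpoint, in 2, 2 and 4 cells. Kif20a, a motor of the cleavage furrow, was found in 7 marked adult (8.64%), 2 unmarked adult (3.45%) and 4 pregnancy cells (5.63%). The intervals of these shares overlap.

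On mean CPM the difference between lists was less even. The log2 ratio of mean CPM with a pseudocount of 10 had a median over mitosis genes of 1.18 against marked adult and 0.65 against unmarked adult, while the medians were 0.07 and 0.13 over replication genes and 0.08 and 0.12 over all genes tested. The replication medians had no stable sign, at -0.02 and -0.43 with sums of reads per group and -0.03 and -0.50 with these sums scaled by median-of-ratios factors. Taking for each gene the smaller ratio, and 0 where the signs differed, the medians were 0.65 for mitosis and 0 for replication genes. With this pseudocount the ratio was at least 2 times in favour of pregnancy against each adult set for 10 mitosis genes and 1 replication gene (Rrm1) among those tested, as for 7.99% of the 9502 genes. Those mitosis genes were Top2a, Ccna2, Ccnb2, Cdk1, Birc5, Cenpe, Cenpf, Tpx2, Foxm1 and Bub1. Without the highest cell of each gene and group, Birc5 was lost and Mki67, Ccnb1, Kif11, Prc1, Ect2, Racgap1 and, of the replication genes, Mcm3 were gained. The comparison with unmarked adult cells depended on few cells. With only cells of at least 100000 assigned read pairs and 1500 genes, the mitosis median over unmarked adult was -0.03, and it was 1.05 when the highest cell of each gene and group was left out. Levels compared between genes need the exon length. In mean CPM per kilobase in pregnancy, Rrm1 stood at 56.1, Pcna at 35.6, Ccnb2 at 34.8 and Top2a at 32.4, while Cenpf, with the highest share of cells, stood at 14.1.

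Mitosis reads were concentrated in a few adult cells and spread over many pregnancy cells. Read pairs of the 27 mitosis genes made up 452 CPM of all assigned read pairs in marked adult, 874 in unmarked adult and 1525 in pregnancy cells. In marked adult cells, 2 cells (36 and 105) held 90.6% of them, and without these the value was 44.0 CPM. In unmarked adult cells, 2 cells (158 and 145) held 62.7%, and 354 CPM remained without them. The 2 pregnancy cells with most (9 and 52) held 24.8%, and 1197 CPM remained. Leaving out these pairs of cells was chosen after the values were seen. The highest cell for a gene was cell 36 or 105 for 24 of 27 mitosis genes in marked adult cells and cell 158 or 128 for 17 of 27 in unmarked adult cells. In pregnancy, 14 different cells were the highest for at least 1 mitosis gene. Replication reads were more even between groups, at 430, 796 and 700 CPM, and 359, 507 and 532 without the 2 cells that held most.

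Counted per cell, at least 3 mitosis genes were found in 11 of 81 marked adult (13.6%, 6.98 to 23.0%), 11 of 58 unmarked adult (19.0%, 9.87 to 31.4%) and 57 of 71 pregnancy cells (80.3%, 69.1 to 88.8%). At least 3 replication genes were found in 22 (27.2%, 17.9 to 38.2%), 19 (32.8%, 21.0 to 46.3%) and 35 cells (49.3%, 37.2 to 61.4%). The lowest, median and highest number of mitosis genes in a cell were 0, 1 and 23 in marked adult, 0, 0 and 25 in unmarked adult, and 0, 7 and 20 in pregnancy cells. For replication genes they were 0, 1 and 8, then 0, 1 and 13, and 0, 2 and 9. The adult range for mitosis genes thus reached beyond that of pregnancy, while the median cell had few or none. The 9 pregnancy cells without a mitosis gene have the title numbers 5, 10, 14, 19, 20, 26, 27, 28 and 32, among numbers up to 75. Pregnancy shares thus pool cells that were uneven along the title number, and they were not split by it. At least 5 mitosis genes were found in 4, 4 and 49 cells, and at least 10 in 2, 3 and 15 cells. Genes found per cell moved with these numbers, with a Spearman coefficient against mitosis genes of 0.20, 0.42 and 0.47 over 81, 58 and 71 cells. Against replication genes it was 0.69, 0.58 and 0.45. Cells within a group share capture run and library, and the part of genes found per cell in the counts was not tested.

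**Figure D2:**
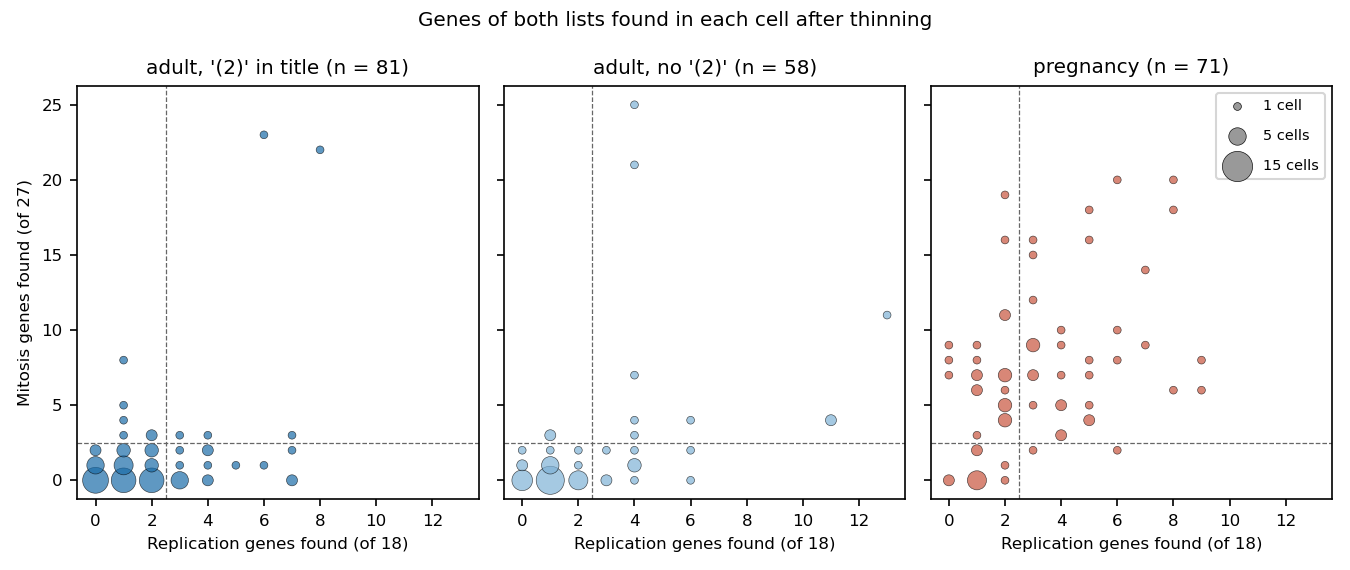
Number of replication genes (horizontal axis, of 18) and mitosis genes (vertical axis, of 27) found in each cell after thinning, 1 panel per group, with the area of a circle in proportion to the number of cells at that point. Dashed lines separate cells with at least 3 genes. Pregnancy cells fill the upper part with up to 20 mitosis genes, and most adult cells gather at the lower left, with 4 cells at 21 to 25 mitosis genes and 3 cells at 11 to 13 replication genes apart from them.

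The lists occurred together in 5 of 81 marked adult (6.17%), 9 of 58 unmarked adult (15.5%) and 33 of 71 pregnancy cells (46.5%, 34.5 to 58.7%), counting cells with at least 3 genes of each. In pregnancy, 33 of the 35 cells with replication genes also had mitosis genes (94.3%, 80.8 to 99.3%), 24 cells had mitosis genes only, 2 had replication genes only and 12 had neither. In marked adult cells, 5 of 22 cells with replication genes had mitosis genes (22.7%, 7.82 to 45.4%), 17 had replication genes only and 6 mitosis genes only. In unmarked adult cells, 9 of 19 did (47.4%, 24.4 to 71.1%), 10 had replication genes only and 2 mitosis genes only. Of all cells, 13.6% of marked adult, 19.0% of unmarked adult and 80.3% of pregnancy cells had at least 3 mitosis genes. The shares among cells with replication genes start from these unlike levels, so on their own they do not rank the groups by how far the lists go together. Cells with replication genes only were the larger class of one-sided cells in adult cells, and cells with mitosis genes only in pregnancy. The limit of 3 genes was the same for lists of 18 and 27 genes. A mean of 11.0%, 13.3% and 17.2% of the replication list was found per cell in marked adult, unmarked adult and pregnancy cells. For the mitosis list it was 5.58%, 7.15% and 26.2%. Across cells, the numbers of genes of the lists had a Spearman coefficient of 0.19, 0.49 and 0.41 in the 3 groups, which share depth and capture run within each.

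Several adult cells carried most of a programme. Cell 36 (marked) had 23 mitosis genes and 6 replication genes (Mcm3, Mcm4, Mcm5, Mcm7, Rrm1 and Rrm2), and lacked Plk1, Aurka, Aurkb and Foxm1. Cell 158 (unmarked) had 25 mitosis genes, all except Birc5 and Kif20a, with 4 replication genes. Cell 145 (unmarked) had 13 replication genes, the most of any cell, with 11 mitosis genes, and neither Cenpe nor Cenpf was among them. These cells had 9 core basal genes each. In pregnancy, cells 22 and 23 had 20 mitosis genes each with 6 and 8 replication genes and 9 core basal genes. Pregnancy cell 71, with 18 mitosis genes, had 5 core basal and 6 luminal genes, and was the 1 retained pregnancy cell short of 6 core basal genes. Among core basal cells alone, at least 3 mitosis genes were found in 13.2%, 17.6% and 80.0% of cells.

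Pairs of genes found in the same cells were led by Cenpf and its companions. In pregnancy, Cenpe and Cenpf were found together in 36 cells, 63.2% of the 57 cells with either, and in 3 of 9 marked adult and 2 of 8 unmarked adult cells with either. Top2a and Cenpf were found together in 33 pregnancy cells (57.9% of 57), Mki67 and Cenpf in 31 (55.4% of 56), Top2a and Cenpe in 28 (57.1% of 49), and Cenpf and Tpx2 in 26 (46.4% of 56). The largest share belonged to Mki67 and Tpx2, found together in 25 of 38 cells with either (65.8%). Mki67 and Cenpe shared 25 cells, Cenpf and Ect2 23, Cenpe and Ect2 22, and Top2a and Ect2 20. Foxm1 and Bub1 were found together in 15 of 29 cells (51.7%), and Prc1 and Racgap1, partners at the central spindle, in 14 of 28 cells. The cells with Foxm1 and Bub1 were 9, 29, 35, 36, 39, 40, 41, 45, 46, 49, 50, 51, 54, 55 and 56. Most lie between 39 and 56, so these shared cells were not spread evenly over the title numbers, which the labels do not explain. Widely found genes share many cells for that reason alone, and the share of cells with either also rises with how widely the genes are found. In pregnancy, Cenpe and Cenpf were found in 40 and 53 cells, and Foxm1 and Bub1 in 22 each. The share thus does not rank pairs by how far their genes go together.

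Some widely found genes overlapped less, a selection made after the values were seen. Tpx2 and Top2a were found together in 12 of 54 pregnancy cells with either (22.2%), and Tpx2 and Ect2 in 7 of 47 (14.9%). The 12 cells with Tpx2 and Top2a were 1, 6, 8, 9, 13, 17, 22, 23, 48, 50, 54 and 57. At higher title numbers, cells 58, 59, 62, 63, 64, 67, 69 and 72 had Tpx2 without Top2a. Cells 60, 61, 65, 66, 70, 71, 74 and 75 had Top2a without Tpx2. This overlap was thus uneven along the title number, and the part of position or capture run in it was not tested. Top2a shared 18 of 41 cells with Foxm1 (43.9%), and Cenpe shared 19 of 43 with it (44.2%). Rrm1 stood beside Mki67 in 18 of 40 cells (45.0%), beside Tpx2 in 16 of 37 (43.2%) and beside its own partner Rrm2 in 13 of 34 (38.2%). Mki67, Tpx2 and Rrm2 were found in 34, 29 and 23 pregnancy cells. The share of cells with either rises with these numbers, so it does not rank the partners of Rrm1. No test was made of these differences.

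**Figure D3:**
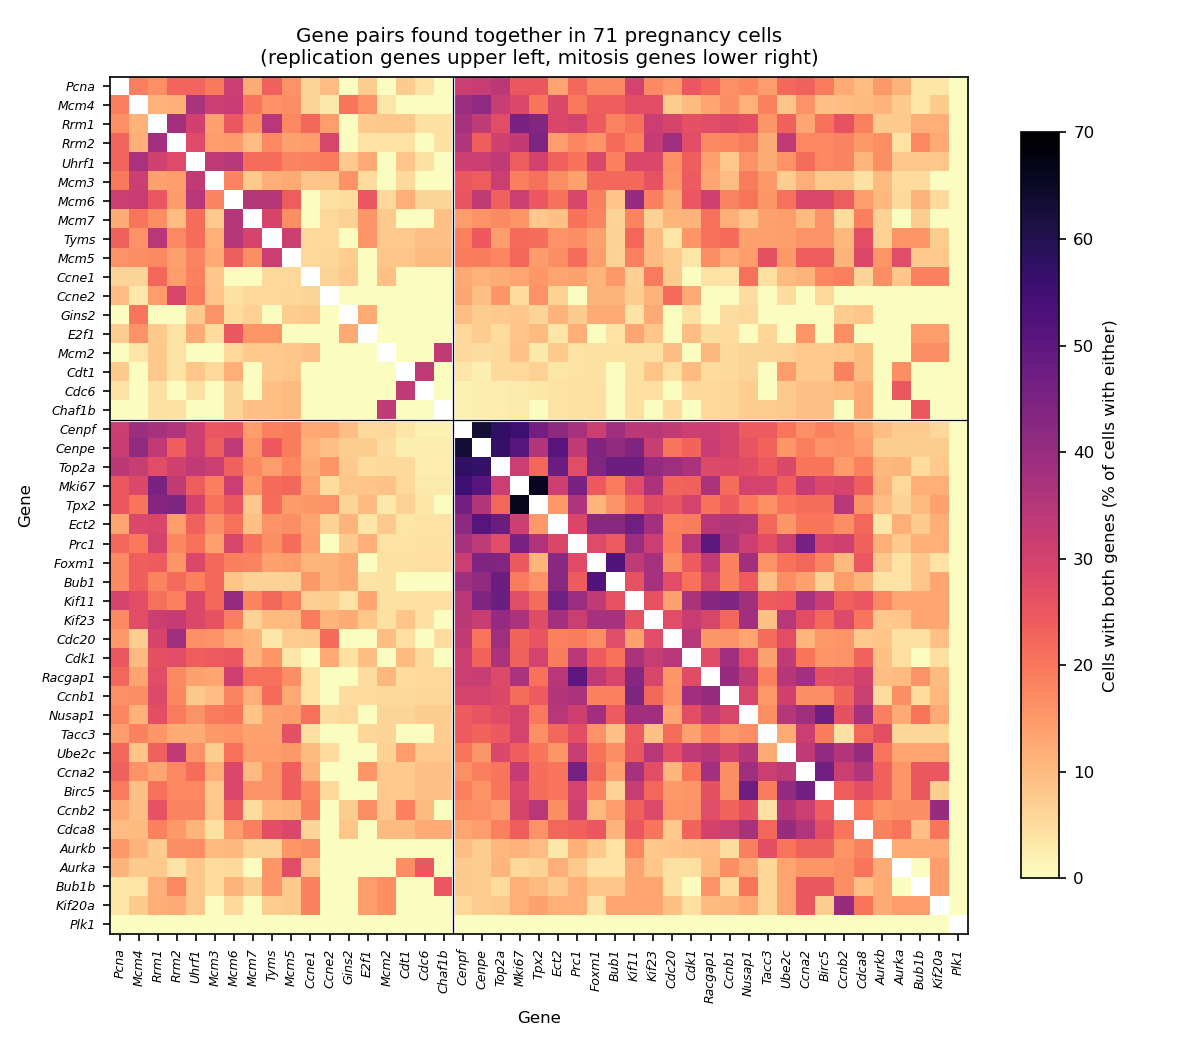
Gene pairs in pregnancy cells, coloured by the percent of cells with both genes among cells with either. Both axes list replication genes first and then mitosis genes, each ordered by detection in pregnancy. The darkest squares are Mki67 with Tpx2 (65.8%) and Cenpe with Cenpf (63.2%), and the row of Plk1, found in no pregnancy cell, is at 0.

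Over all pairs, at least 8 pregnancy cells were shared by 131 of 351 pairs within mitosis genes, 77 of 486 pairs across the lists and 14 of 153 pairs within replication genes. The pair across lists with most pregnancy cells was Mcm4 with Cenpf (22 cells, 39.3% of 56). Within replication genes, Mcm4 with Uhrf1 and Rrm1 with Rrm2 led with 13 cells each. In adult cells the leading replication pair was Mcm4 with Pcna, found together in 16 of 48 marked and 11 of 34 unmarked adult cells with either, and in 8 of 43 pregnancy cells. The mean share of cells with either was 21.1%, 30.3% and 21.5% over mitosis pairs in marked adult, unmarked adult and pregnancy cells, and 7.20%, 14.0% and 10.7% over replication pairs. By this measure, which also rises with detection, the adult mitosis pairs, found in few cells, stood level with those of pregnancy or above them.

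Other genes of both pathways were described in the same way. Of 52 other replication genes, 14 were higher in pregnancy by the rule of 10 points and 0 lower, and 39 had the mean share of 5%, a count near the background of 31.1%. The most widely found were Slbp, which binds histone mRNA (39.5%, 32.8% and 53.5% of cells), Rfc1, of the clamp loader (34.6%, 31.0% and 56.3%), Dut, which removes dUTP (22.2%, 31.0% and 56.3%), and Dnmt1, the maintenance DNA methyltransferase (25.9%, 25.9% and 52.1%). Of 58 other mitosis genes, 19 were higher and 0 lower, and 40 had the mean share of 5%. That count stood above the background of 31.1% among the 40 genes, but near it among all 58. Some reached the mean share mainly through pregnancy, as Melk did with 0%, 1.72% and 19.7% of cells. Smc4 and Smc2, which form the core of condensin, were found in 32.1%, 48.3% and 81.7% and in 17.3%, 25.9% and 67.6% of cells. Pttg1, which restrains separase, was found in 29.6%, 37.9% and 53.5%. Bub3, of the spindle checkpoint, went the other way with 30.9%, 37.9% and 28.2%. The ratio with a pseudocount of 10 CPM was at least 2 times for 7 of the other replication and 8 of the other mitosis genes that had the mean share, against 7.99% of all genes tested.

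Exon length moved with the difference in detection, which was looked at after the values were seen. Of all genes tested, 18.8% of those with up to 1000 bases of exon and 49.8% of those with over 8000 bases met the rule of 10 points. All 9 mitosis genes longer than 4000 bases met it (Top2a, Tpx2, Foxm1, Bub1, Kif11, Ect2, Cenpe, Mki67 and Cenpf), while 1 of the 5 between 1000 and 2000 bases did (Cdc20). Over the 27 mitosis genes, the Spearman coefficient of exon length with the difference in points was 0.70 against marked and 0.76 against unmarked adult cells. It was 0.35 and 0.30 over the 18 replication genes and 0.21 and 0.17 over all genes tested, where points are genes of the same libraries. Median exon lengths were alike, at 2894 bases for replication genes, 3065 for mitosis genes and 3001 for all genes tested. In the class of 2000 to 3000 bases, the median difference against marked adult cells was 9.15 points over 6 replication genes, 15.4 over 6 mitosis genes and 6.65 over 1974 genes. In the class of 1000 to 2000 bases it was -3.18 over 4 replication genes, 5.81 over 5 mitosis genes and 4.75 over 1961 genes, and against unmarked adult cells it was 2.19 over the mitosis genes and 4.40 over all genes. The part of exon length in the difference between stages was not tested.

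**Figure D4:**
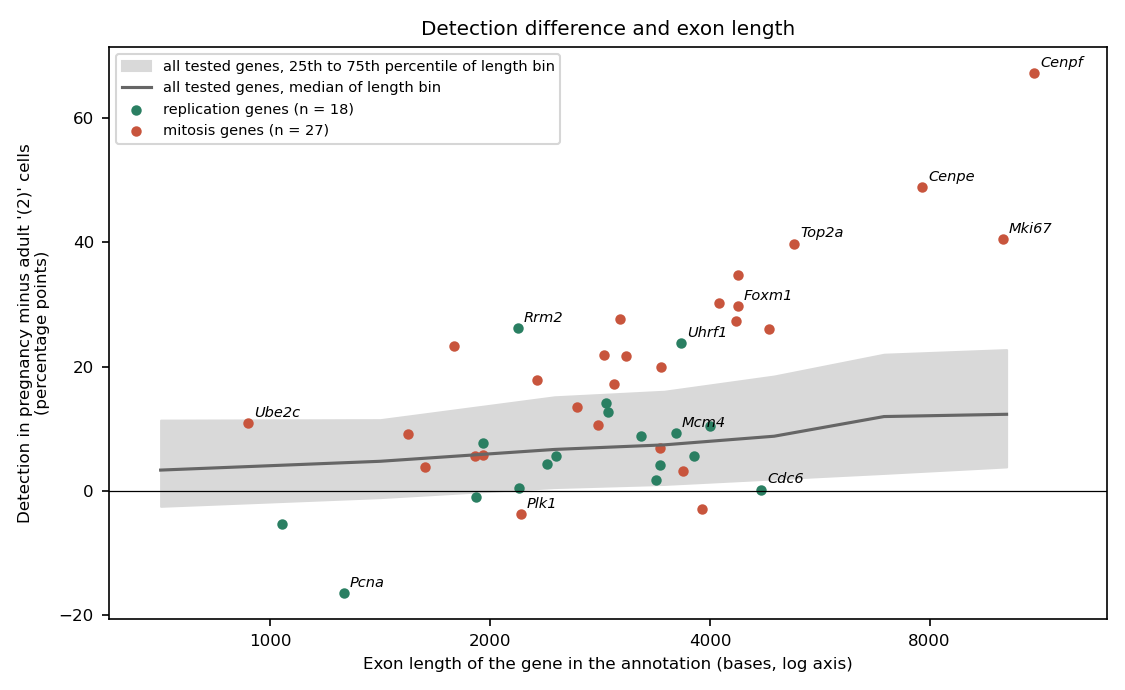
Difference in detection between pregnancy and marked adult cells, in percentage points, against exon length in bases on a log axis. Points are members, and the line and band are the median and the quartiles of all 9502 genes by class of length. The median of all genes goes from 3.33 to 12.3 points, and mitosis genes over 4000 bases lie between 26.0 and 67.2 points.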

How the data were processed

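RNA was measured in 312 single cells, and the values used are the counts deposited by the authors, whole read pairs per gene in each cell, not normalized. Per the submitters' processing notes and the study's methods, alignment to mm10 used Subread 1.5.0, and featureCounts assigned pairs to genes of a RefSeq annotation built into Rsubread. No molecular identifiers were used and the strand setting is not given in the sources used here, so copies made by PCR are counted and antisense or near-identical genes may share reads. The deposited exon length per gene, in bases, was used for values per kilobase.

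Of 27179 gene IDs, 15 mitochondrial and 124 ribosomal protein genes and 1904 IDs without a symbol (1.66% of reads) were left out, which left 25136 genes. Cells with at least 50000 assigned read pairs and 1000 genes were retained (210 of 312) and thinned without replacement to 50000 read pairs with a fixed seed. No doublet caller was run. CPM was computed per 1000000 assigned read pairs, with cells weighted equally, and log2 ratios of means used a pseudocount of 10 CPM, which understates the change of low genes. Genes with a mean share of at least 5% of cells over the 3 groups counted as tested (9502). Scripts were tested on simulated counts.

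Groups came from the labels, each sample is 1 cell and no animals are named, so each group was 1 sample and no p-value was computed. Shares have exact 95% Clopper-Pearson intervals and shares of 0 the limit of 3 counts. No 2 cells had identical counts. The members, lists and rules were chosen with earlier results of these data known. All 45 members were to be accounted for, with full values for the 6 replication and 8 mitosis genes found most widely, the 3 found least in each list, and those with a higher adult share. Pairs were named by the 10 with most shared pregnancy cells and the 10 with the largest share, among pairs with at least 8 shared cells. Promoter windows and coordinates came from RefSeq on GRCm38.p6. Columns of the whole-series table were not used. Software was Python 3.11.15, NumPy 2.4.6, SciPy 1.17.1, pandas 2.3.3 and Matplotlib 3.10.9.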

Additional observations from a re-analysis of the deposited data

Results flagged for a closer look

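Cells that did not pass the filter on depth were not used in any comparison, and their reads held both gene lists. In the 31 marked adult cells left out, replication genes made up 0.0440% of assigned read pairs (199 pairs, and 0.0283% without cell 25) and mitosis genes 0.0186% (84 pairs). In the 67 unmarked adult cells left out, the shares were 0.0478% (344 pairs) and 0.0228% (164 pairs), and cell 212, with 3543 assigned read pairs, held 42 pairs of 13 mitosis genes. In the 4 pregnancy cells left out, replication genes made up 0.0417% (39 pairs) and mitosis genes 0.146% (137 pairs). Cell 68 alone held 31 of the replication pairs and 70 of the mitosis pairs, and without it the shares were 0.0124% and 0.103%. Leaving out these cells was chosen after the values were seen.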

How the results depend on the processing

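No paired analysis was possible because each group is 1 sample, and no test was made. The labels do not explain the number in a title, and mitosis genes in pregnancy cells were unevenly found along it. The alternatives did not split cells by this number. In every alternative, the share of pregnancy cells with at least 3 replication genes, 3 mitosis genes or 3 of each lay above both adult shares. Of 162 values under alternatives, 116 stayed within the interval of the main value (counts within 1.5 times), 45 moved outside it, and 1 whose main interval lies above 0 (the mitosis median over unmarked adult) changed sign. In addition, 6 replication medians, whose main intervals include 0, changed sign. Over unmarked adult they went from 0.13 to -0.0096 with CPM over all genes, -0.43 with sums of reads, -0.50 with median-of-ratios factors and -0.33 with cells of 100000 read pairs and 1500 genes, and over marked adult from 0.07 to -0.015 with sums of reads and -0.031 with median-of-ratios factors. At 100 CPM without thinning, cells with 3 replication genes were 8.64%, 10.3% and 14.1% in marked adult, unmarked adult and pregnancy, cells with 3 mitosis genes 2.47%, 8.62% and 40.8%, and cells with both 3.45% in unmarked adult and 7.04% in pregnancy. The rule of 10 points then counted 1 replication and 6 mitosis genes. The share of all genes that met this rule or the 2-fold rule was taken only in the main setting. Counts of members under alternatives therefore have no background beside them and do not show whether the lists stood out there. With at least 2 read pairs, replication cells were 16.0%, 20.7% and 33.8%, marked adult mitosis cells 2.47% and pregnancy cells with both 25.4%. Thinned to 20000 read pairs, marked adult cells were 17.3% (replication) and 2.47% (mitosis), and pregnancy cells 69.0% (mitosis) and 31.0% (both). Without thinning, marked adult cells were 50.6% (replication), 28.4% (mitosis) and 22.2% (both), pregnancy cells 74.6% (replication) and 69.0% (both), and 7 replication genes met the rule. Requiring 5 mitosis genes gave 4.94%, 6.90% and 69.0%. For mean CPM, 2 times higher in pregnancy (pseudocount included) were 6 mitosis genes with CPM over all genes, with median-of-ratios factors or with cells of 100000 read pairs and 1500 genes, 5 with the mean of log2 values and 1 with a pseudocount of 100. Replication genes counted there were 0 with log2 means or a pseudocount of 100, and 2 with a pseudocount of 1 or without the highest cell of each gene. The mitosis median over marked adult was 0.55 with log2 means, 2.19 with a pseudocount of 1 and 0.30 with 100. Over unmarked adult it was 0.22 with a pseudocount of 100, 0.28 with median-of-ratios factors and -0.029 with cells of 100000 read pairs and 1500 genes, and the median of the smaller ratio was 0.22, 0.28 and 0. The cause of these shifts was not tested. Keeping only cells with 6 core basal genes, or averaging 100 thinning draws, moved no value outside its interval.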
